A study of Mus musculus with 12 samples.

Results

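Glucose enters brain cells through facilitative transporters, and its metabolism is read out electrically by the ATP-sensitive potassium (KATP) channel. The 8 genes described here encode 4 glucose transporters (*Slc2a1*, *Slc2a2*, *Slc2a3* and *Slc2a4*, encoding GLUT1, GLUT2, GLUT3 and GLUT4) and the 4 KATP subunits (the pore subunits *Kcnj11* and *Kcnj8*, encoding Kir6.2 and Kir6.1, and the regulatory subunits *Abcc8* and *Abcc9*, encoding SUR1 and SUR2). They were chosen by symbol, and each matched 1 of the 38283 genes in the deposited table. RNA was measured in the hypothalamic arcuate nucleus (ARC) of 5 WT mice and of 7 mice homozygous for a knock-in of the R299Q mutation in the γ2 subunit of AMPK (Homo), all C57BL/6 males aged 8 weeks with free access to food and with 1 library per mouse. The ARC was cut out by laser-capture microdissection, so a library holds RNA of all its cell types, and the knock-in is not restricted to one of them. A lower level may then come from fewer cells of a type or from less RNA per cell, which cannot be told apart here.

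GLUT1 carries glucose across the endothelium of the blood-brain barrier and into astrocytes, GLUT3 is the main transporter of neurons, GLUT2 is a low-affinity transporter known from the β cell and the liver, and GLUT4 is the insulin-responsive transporter of muscle and fat, also present in some neurons. A KATP channel pairs a ring of Kir6 pore subunits with the same number of SUR subunits. ATP closes the pore and MgADP acting on SUR opens it, so the channel closes when glucose metabolism raises ATP. Kir6.2 with SUR1 is the form of the β cell and of many neurons, including glucose-responsive neurons of the hypothalamus, whereas Kir6.1 with SUR2 is the form of vascular smooth muscle and pericytes.

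The genes of each channel pair lie next to each other. On GRCm38 (positions from GENCODE M21), *Kcnj11* (ENSMUSG00000096146) spans chr7:46093953-46100764 and *Abcc8* (ENSMUSG00000040136) chr7:46104523-46180033, both on the minus strand and 3.76 kb apart. *Kcnj8* (ENSMUSG00000030247) spans chr6:142564837-142571614 and *Abcc9* (ENSMUSG00000030249) chr6:142587862-142702315, also both on the minus strand, with 16.2 kb between them. The transporters are dispersed: *Slc2a1* (ENSMUSG00000028645) lies at chr4:119108711-119137983, *Slc2a2* (ENSMUSG00000027690) at chr3:28697903-28731359, *Slc2a3* (ENSMUSG00000003153) at chr6:122727809-122801640 and *Slc2a4* (ENSMUSG00000018566) at chr11:69942539-69948188. Exons of the antisense genes *Gm12868* and *5330439B14Rik* overlap exons of *Slc2a1* by up to 105 bases and of *Abcc9* by up to 158 bases. No use of strand is stated for the quantification, so these reads could not be separated.

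The libraries fell into 2 sets by the number of genes above 0, with 15742 to 16467 genes in WT 1, WT 2 and Homo 1 to 5 and 18141 to 18635 in WT 3 to 5, Homo 6 and Homo 7. Neither the labels nor the study's text names this split as a batch, and differences that touch it are also given within each set. Levels are in FPKM, fragments scaled to transcript length and to the mapped fragments of a library, which allows genes to be compared per length. The table holds no counts, but low values fell on steps clear enough to read relative depth in 6 libraries, where 1 fragment per kilobase was worth between 0.0845 and 0.324 FPKM. The tissue check gave ARC transcripts in every library, with 7 of 7 ARC neuron markers above the filter, and summed pituitary markers from 0 to 113 FPKM.

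Among these 4 transporters, GLUT1 and GLUT3 transcripts made up nearly all of the RNA. *Slc2a1* averaged 25.4 FPKM over the 12 libraries and *Slc2a3* 13.2 FPKM, and *Slc2a1* was the higher of the pair in 12 of 12 libraries. The median share of *Slc2a1* in the summed FPKM of the 4 transporters was 64.3% among WT libraries and 66.0% among Homo libraries. That of *Slc2a3* was 35.7% and 30.6%. All 12 libraries listed *Slc2a3* above every KATP subunit. *Slc2a4* and *Slc2a2* stood at the bottom, at means of 0.327 and 0.0816 FPKM.

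The start regions of the highest and the lowest of these transporters are shown because they are the extremes of the order just described. Both are windows of 300 bases that span the annotated start, from RefSeq (GRCm38.p6). Capitals mark the GC box (GGGCGG or CCGCCC) and the TATA box (TATAAA or TTTATA), searched on both strands, and no 2 matches overlap. The sequences are chr4:119108495-119108794 on the plus strand for *Slc2a1* and chr3:28697653-28697952 on the plus strand for *Slc2a2*.

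Slc2a1: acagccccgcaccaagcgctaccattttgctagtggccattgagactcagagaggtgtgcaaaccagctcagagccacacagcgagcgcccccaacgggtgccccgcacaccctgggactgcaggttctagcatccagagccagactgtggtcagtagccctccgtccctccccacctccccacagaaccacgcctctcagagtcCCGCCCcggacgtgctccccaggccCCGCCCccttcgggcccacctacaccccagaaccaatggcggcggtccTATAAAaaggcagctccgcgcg

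Slc2a2: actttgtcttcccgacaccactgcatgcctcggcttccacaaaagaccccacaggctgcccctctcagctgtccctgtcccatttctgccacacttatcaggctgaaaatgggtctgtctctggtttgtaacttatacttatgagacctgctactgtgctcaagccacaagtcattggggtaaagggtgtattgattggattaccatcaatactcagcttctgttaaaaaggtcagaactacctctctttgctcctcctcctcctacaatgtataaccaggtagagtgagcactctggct

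The *Slc2a1* window held 2 GC boxes and 1 TATA box, 18 CpG dinucleotides and 65.3% G + C. That TATA box is a match by sequence near the end of the window, downstream of the gene start at chr4:119108711 given above. The *Slc2a2* window held neither motif, 2 CpG dinucleotides and 48% G + C. Among 32851 mouse windows of the same length, 35.7% held a GC box and 13.6% a TATA box, the median number of CpG was 7, and 70.3% and 14.1% of windows had fewer CpG than those of *Slc2a1* and *Slc2a2*. The windows of *Kcnj8* and *Abcc9* had 9 and 16 CpG, with no match in the first and 1 GC box in the second. The set of windows used held none for *Slc2a3*, *Slc2a4*, *Kcnj11* or *Abcc8*. These are descriptions of sequence, and binding was not measured.

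WT 1 to 5 had *Slc2a1* levels of 24.9, 33.2, 18.4, 21.4 and 28.8 FPKM, and the 7 Homo libraries lay between 19.3 and 31.4 FPKM, with a median of 24.6. All 7 Homo values fell inside the WT range. WT mice averaged 25.4 ± 5.88 FPKM (SD, n = 5) and Homo mice 25.4 ± 4.25 FPKM (SD, n = 7). On the log2(FPKM + 1) scale, on which limma compared the genotypes and which understates changes of low genes, the difference (Homo minus WT) was 0.017 with a standard error of 0.19 and a 95% interval from -0.38 to 0.42 (limma with Benjamini-Hochberg adjustment over 14017 genes, adjusted p = 0.995). An exact two-sided permutation test over the 792 assignments of 5 and 7 libraries, which can go no lower than 0.00126, gave p = 0.917.

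For *Slc2a3* the values of WT 1 to 5 were 17.3, 18.4, 10.5, 10.1 and 11.5 FPKM, and those of Homo lay between 10.5 and 18.6 FPKM, with a median of 12.1. The highest WT values came from WT 1 and WT 2, and the highest Homo value from Homo 3, all libraries with fewer genes above 0. The log2 difference was -0.048 with a standard error of 0.21 and a 95% interval from -0.50 to 0.40 (limma adjusted p = 0.990; exact permutation p = 0.787). The estimates for both transporters changed sign between the library sets. In the set with fewer genes the log2 difference was -0.24 for *Slc2a1* and -0.45 for *Slc2a3*, and in the other set 0.30 and 0.20, none with a limma adjusted p under 0.05. In that second set the median of all tested genes was itself at 0.13.

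**Figure D1:**
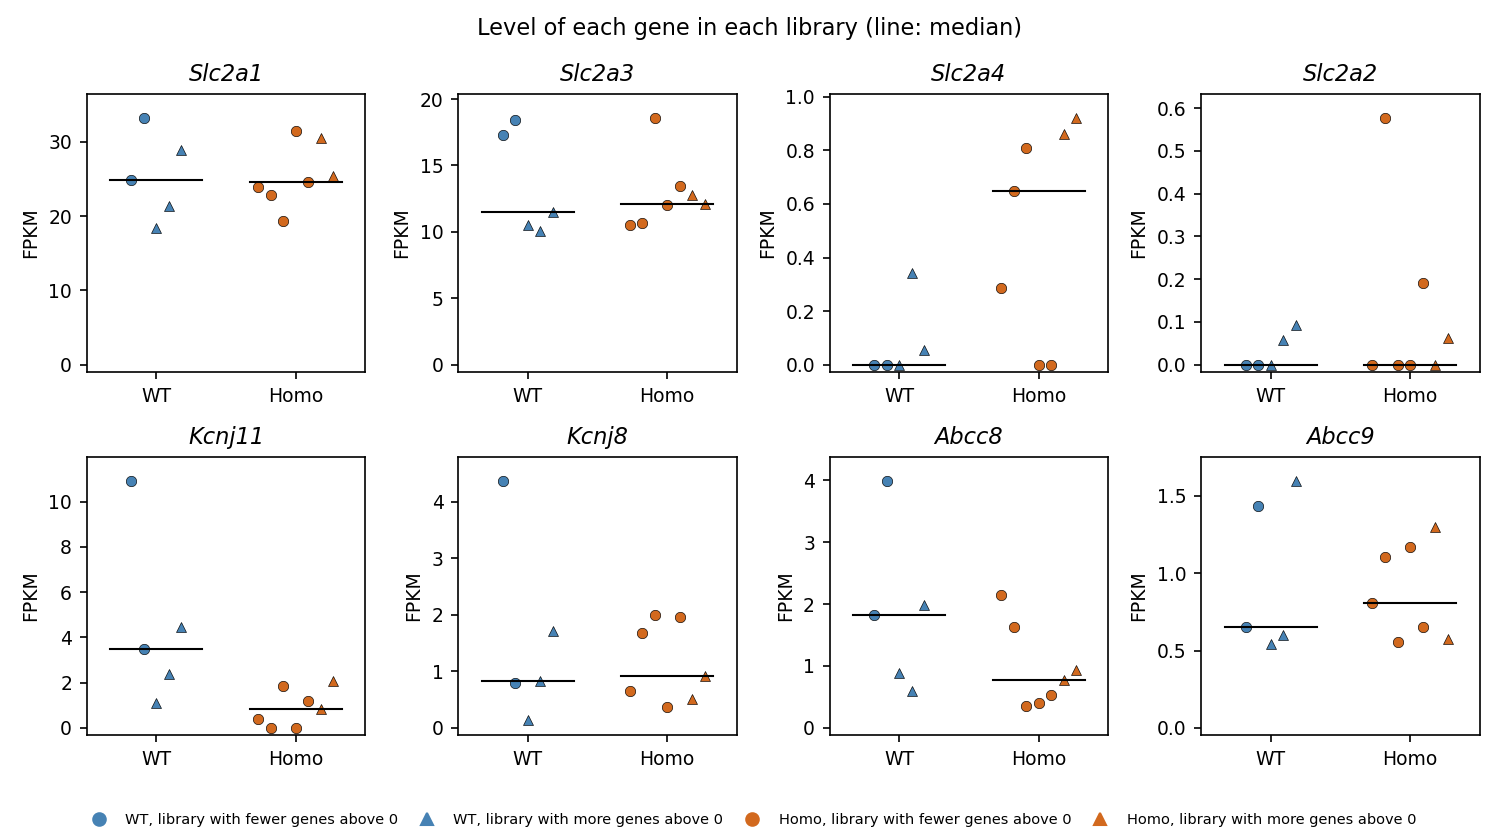
Level of each of the 8 genes (vertical axis, FPKM, a separate linear scale per gene from 0) in each WT (blue) and Homo (orange) library, with circles for libraries with fewer genes above 0, triangles for those with more, and a line at the group median. *Slc2a1* and *Slc2a3* overlap between genotypes, and all 7 Homo values of *Kcnj11* lie below the WT median of 3.49 FPKM.

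*Slc2a4* was listed at 0 in WT 1, WT 2 and WT 3, at 0.341 in WT 4 and at 0.0557 FPKM in WT 5. In Homo 1 to 7 it was listed at 0.286, 0.650, 0.808, 0, 0, 0.861 and 0.921 FPKM. It was above 0 in 2 of 5 WT and 5 of 7 Homo libraries, and 4 Homo libraries lay above the highest WT value, while the other 3 did not. Its mean was below the filter of 1 FPKM, so it was not among the genes tested. With no filter, its log2 difference was 0.44 with a standard error of 0.20 (limma adjusted p = 0.878).

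*Slc2a2* was listed at 0 in 3 WT and 4 Homo libraries. Its other values were 0.0579 in WT 4, 0.0916 in WT 5, 0.576 in Homo 2, 0.191 in Homo 5 and 0.0630 FPKM in Homo 7. It too was below the filter, and with no filter its log2 difference was 0.10 with a standard error of 0.11 (limma adjusted p = 0.878).

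The KATP subunits were low, and *Kcnj11*, the pore subunit of the β cell and neuronal channel, was the member with the lowest Homo values relative to WT. WT 1 to 5 held 10.9, 3.49, 1.12, 2.40 and 4.45 FPKM of it. Homo 1 to 7 held 0.374, 0, 1.86, 0, 1.20, 0.814 and 2.06 FPKM. All 7 Homo values were below the WT median of 3.49 FPKM and 4 were below the lowest WT value, but the ranges overlapped between 1.12 and 2.06 FPKM. WT 1 had the highest value of all libraries, and Homo 2 and Homo 4 list the gene at 0.

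The log2 difference of *Kcnj11* was -1.41 with a standard error of 0.43 and a 95% interval from -2.33 to -0.49, which makes no allowance for the number of genes tested. It did not pass the adjustment over all genes (limma adjusted p = 0.763). For this gene alone the exact permutation test gave an unadjusted p = 0.0101. By limma p it stood at rank 93 of the 14017 genes. *Kcnj11* and *Abcc8* passed the filter of 1 FPKM through their WT libraries, with Homo means of 0.901 and 0.968 FPKM, while *Slc2a4*, with higher values in Homo, did not pass, so the members tested are not a balanced sample of the 8. *Kcnj11* had an unadjusted p under 0.05, in a table where 2.5% of genes passed that threshold with a lower value in Homo, 3.05% with a higher one and 5.55% in either direction. With adjustment 0 of the 5 tested members were called, against 0.00713% of all genes. Likewise 0 of the 5 had all Homo values below all WT values or above them, against 0.0927% and 0.128% of all genes.

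*Kcnj11* kept its sign in both library sets, at -2.25 where fewer genes were above 0 and at -0.53 in the second set. In the first set the 2 WT libraries were at 3.49 and 10.9 FPKM and the 5 Homo libraries at 0 to 1.86 FPKM. Only 2 WT libraries enter this gap and its share over all genes was not counted, so it is not read as a result. In the second the 3 WT libraries, at 1.12 to 4.45 FPKM, overlapped the 2 Homo libraries, at 0.814 and 2.06 FPKM. Without WT 1 the log2 difference was -1.07, without Homo 2 and Homo 4 -1.09, and without all 3 of these libraries -0.75 (limma adjusted p = 0.937). With a pseudocount of 0.1 in place of 1 it was -2.59. The direction was the same in these settings and the size was not.

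The values of *Kcnj11* rest on few fragments. From the steps between low values, 0.814 FPKM in Homo 6 corresponds to between 7.09 fragments, if they came from the annotated transcript of 917 bases, and 28.5 if from that of 3142 bases. In WT 5 the same reckoning gives between 27.1 and 108.7 fragments. In Homo 4, where the gene is listed at 0, 3 fragments would give 0.328 FPKM on the longer transcript and 1.32 FPKM on the shorter, and the second value is above the lowest WT value. The other library that lists it at 0, Homo 2, had no clear step.

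*Kcnj8*, the pore subunit known from vascular smooth muscle and pericytes, had values of 4.36, 0.799, 0.139, 0.826 and 1.72 FPKM for WT 1 to 5. Its Homo values lay between 0.362 and 2.00 FPKM, with a median of 0.921. WT 1 was again the highest library and the genotypes overlapped over the whole Homo range. The log2 difference was -0.12 with a standard error of 0.40 and a 95% interval from -0.98 to 0.74 (limma adjusted p = 0.990; exact permutation p = 0.766), and it turned to 0.20 without WT 1.

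*Abcc8*, which encodes SUR1, reached 1.83, 3.98, 0.878, 0.588 and 1.99 FPKM in WT 1 to 5 and lay between 0.356 and 2.14 FPKM in Homo, with a median of 0.781. In 6 of 7 Homo libraries it was below the WT median of 1.83 FPKM, and 3 were below the lowest WT value. The log2 difference was -0.48 with a standard error of 0.36 and a 95% interval from -1.25 to 0.29 (limma adjusted p = 0.915; exact permutation p = 0.153). By library set it was -0.99 (fewer genes above 0) and -0.16 (more genes).

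*Abcc9*, which encodes SUR2, was listed at 0.651, 1.43, 0.543, 0.602 and 1.59 FPKM for WT 1 to 5 and between 0.555 and 1.30 FPKM in Homo, with a median of 0.809. All 7 Homo values lay inside the WT range. Its mean of 0.915 FPKM was just under the filter of 1 FPKM, with *Kcnj8* at 1.33 FPKM the member nearest above it. With no filter its log2 difference was -0.043 with a standard error of 0.22 (limma adjusted p = 0.974).

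**Figure D2:**
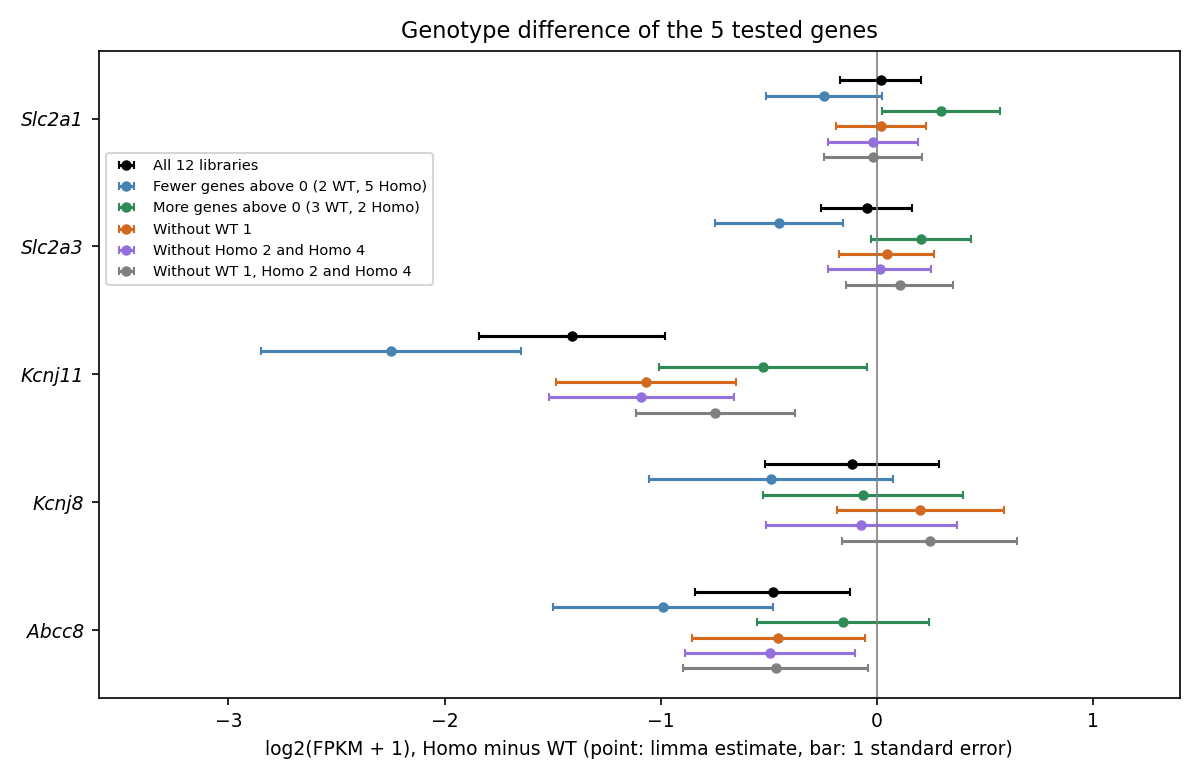
Difference between genotypes in log2(FPKM + 1), Homo minus WT (horizontal axis), for the 5 tested genes, as the limma estimate (point) with 1 standard error to each side (bar), over all 12 libraries, in each library set and without the libraries named in the key. *Kcnj11* lies below 0 in all 6 settings, from -2.25 to -0.53, and so does *Abcc8*, from -0.99 to -0.16. *Slc2a1*, *Slc2a3* and *Kcnj8* change sign among them.

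The 4 subunits could not be put in a firm order of level. By mean FPKM the order was *Kcnj11* (2.39), *Abcc8* (1.34), *Kcnj8* (1.33) and *Abcc9* (0.915), but this pools the genotypes. By median the WT order was *Kcnj11* (3.49), *Abcc8* (1.83), *Kcnj8* (0.826) and *Abcc9* (0.651), and the Homo order was *Kcnj8* (0.921), *Kcnj11* (0.814), *Abcc9* (0.809) and *Abcc8* (0.781). Within libraries, *Kcnj11* was above *Abcc8* in 8 of 12 libraries, *Abcc8* above *Kcnj8* in 7 of 12 and *Kcnj8* above *Abcc9* in 7 of 12. The spread between mice of a genotype was wide for the low genes. The coefficient of variation was 85.0% in WT and 93.6% in Homo for *Kcnj11*, against 23.2% and 16.7% for *Slc2a1*.

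Of 5 ratios computed between members, 1 did not overlap between genotypes, that of the 2 pore subunits. The log2 ratio of *Kcnj11* over *Kcnj8* within a library, with 1 added to both values, was 1.15, 1.32, 0.90, 0.90 and 1.00 in WT 1 to 5. In Homo it lay between -1.42 and 0.67 with a median of -0.26, so all 7 Homo libraries were below all 5 WT libraries. As plain FPKM, *Kcnj11* was 2.50 to 8.08 times *Kcnj8* in WT and 0 to 2.24 times in Homo, again with no overlap. The highest of these, in WT 3, rests on 0.139 FPKM of *Kcnj8*, or 3.32 to 3.77 fragments by the steps described above. In Homo 4, *Kcnj8* corresponds to 2.33 to 2.65 fragments.

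WT libraries averaged a log2 ratio of 1.05 ± 0.18 (SD, n = 5) and Homo libraries one of -0.24 ± 0.66 (SD, n = 7), a difference of -1.29. Homo 2 and Homo 4 enter it with *Kcnj11* at 0. No test was run on the ratios. With 0.1 added in place of 1, the genotypes did not overlap either. Within each library set the lack of overlap follows from that over all libraries and adds nothing to it. With 1 added, the difference was -1.76 where fewer genes were above 0 and -0.46 in the second set. As background, *Kcnj11* set over each of the other 14015 tested genes put all Homo below all WT for 8.07% of them. Each of those genes set over *Kcnj8* did so for 0.0143%. WT 1, the highest library for both pore subunits, had a ratio inside the range of the other WT libraries.

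The remaining balances overlapped between genotypes. The log2 ratio of *Abcc8* over *Abcc9* spanned -0.013 to 1.03 in WT, against -0.63 to 0.80 in Homo. For *Kcnj11* over its partner *Abcc8* the WT range was -0.15 to 2.07 and the Homo range -1.39 to 1.08, with 6 of 7 Homo libraries below the WT median. For *Kcnj8* over *Abcc9* the WT range was -0.44 to 1.70 and the Homo range -0.67 to 0.95. For *Slc2a1* over *Slc2a3* they were 0.50 to 1.26 and 0.053 to 1.32.

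**Figure D3:**
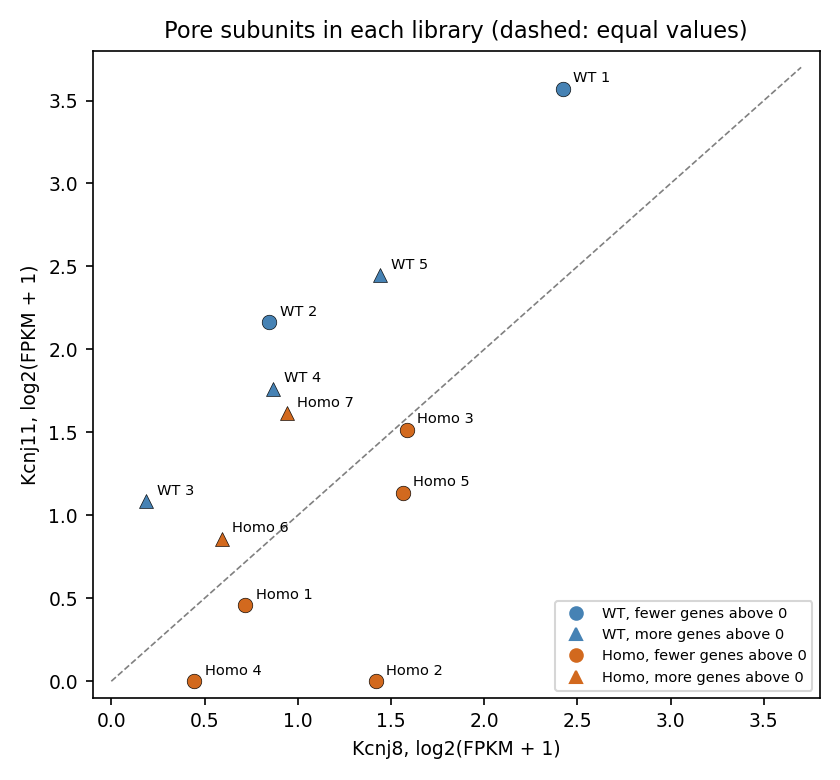
*Kcnj11* (vertical axis) against *Kcnj8* (horizontal axis), both as log2(FPKM + 1), 1 point per library, with colours and shapes for genotype and library set and a dashed line where both are equal. The 5 WT libraries lie above the line by 0.90 to 1.32, the Homo libraries with fewer genes above 0 lie below it, and Homo 6 and Homo 7 lie between.

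Across the libraries, with values centred within each library set, the log2 level of *Kcnj11* had a correlation with that of *Kcnj8* of Pearson r = 0.72 (uncentred, Spearman rho = 0.54), and with that of its partner *Abcc8* of r = 0.39 (rho = 0.32). *Kcnj8* and its partner *Abcc9* had r = -0.15 and rho = -0.11. These are descriptions over 12 libraries that share genotype and depth differences. The genes tested that were most like each member in this measure were *Prkar1b* (r = 0.92), *Gclc* (0.91) and *Abcd2* (0.91) for *Slc2a1*, and *Irs2* (0.95), *Zfp382* (0.94) and *Emc6* (0.93) for *Slc2a3*. For the subunits they were *Gm17344*, *Speg* and *Fam188a* for *Kcnj11* (each 0.90), *Ndrg1* (0.91), *Phf13* (0.89) and *Xrcc6* (0.88) for *Kcnj8*, and *Usp32* (0.95), *Irf2bp1* (0.94) and *Ptpre* (0.93) for *Abcc8*.

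Markers of the cell types that a captured ARC could hold were set beside these values. Over all tested genes the median log2 difference was -0.0062. Tanycyte markers had a median log2 difference of -0.50, with an unadjusted p under 0.05 for 2 of 6, both lower in Homo. Their summed levels were 62.8 to 110.8 FPKM in WT against 24.5 to 90.0 FPKM in Homo, which pools the library sets. Where fewer genes were above 0, WT 1 and WT 2 (62.8 and 67.3) fell inside the span of Homo 1 to 5 (24.5 to 88.7). In the other set WT 3 to 5, from 100.9 to 110.8 FPKM, were above Homo 6 (90.0) and Homo 7 (61.9). Pericyte and smooth muscle markers, of which 6 of 9 were tested, had a median of -0.29, with 5 of the 6 lower, 1 higher at an unadjusted p under 0.05 (*Vtn*) and sums of 30.4 to 72.2 and 42.8 to 71.1 FPKM. Their part in the values of *Kcnj11* was not tested. WT 1, the library with the most *Kcnj11*, had the lowest pericyte sum of all 12, the lowest tanycyte sum of WT, all 4 pituitary markers at 0, and the highest ARC neuron sum of WT, at 3748 FPKM. WT 2, Homo 2 and Homo 5 also had summed pituitary markers of 0. WT 3, with the least *Kcnj11* of WT, had the lowest ARC neuron sum, at 1119 FPKM. The highest ARC neuron sums were those of Homo 5 and Homo 4 (4110 and 4000 FPKM), with *Kcnj11* at 1.20 and 0 FPKM. Over all 12 libraries, centred within sets, *Kcnj11* had r = 0.12 with the ARC neuron sum (uncentred rho = -0.095). With the tanycyte, pericyte and pituitary sums r was -0.021, -0.53 and -0.083. *Kcnj8* had r = -0.44 with the pericyte sum and r = -0.22 with the sum of the endothelial markers (uncentred rho = -0.32 and -0.10). Which cells held *Kcnj8* in these libraries was not tested.

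Markers of the remaining cell types had medians of 0.17 (endothelium, 8 of 8 tested), 0.19 (astrocytes, 6 of 6), 0.089 (neurons, 6 of 6), 0.43 (ARC neurons, 7 of 7, 2 higher at an unadjusted p under 0.05), 0.38 (microglia, 6 of 6, 2 higher), 0.37 (oligodendrocytes, 6 of 6), 0.33 (choroid plexus, 3 of 4), -1.14 (pituitary, 2 of 4) and -0.39 (blood, 2 of the 2 found). None of these markers had a limma adjusted p under 0.05. The 2 ARC neuron markers counted as higher were *Agrp* and *Npy*. Sums of the ARC neuron markers were also read by library set. They ran from 2868 to 4110 FPKM over Homo 1 to 5, with WT 1 and WT 2 inside, at 3748 and 3644. In the set with more genes WT 3 to 5, from 1119 to 2541 FPKM, were below Homo 6 and Homo 7 (3087 and 3112). Neuronal markers summed to 615.5 to 855.3 FPKM in WT, against 592.2 to 955.6 FPKM in Homo. Endothelial markers summed to 32.5 to 46.6 FPKM and 35.2 to 63.9 FPKM.

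Around these genes, 0 of the 39 tested genes of 5 related lists passed the adjustment. Of 13 other hexose transporters 7 were tested, 5 higher and 2 lower in Homo with a median log2 difference of 0.059. *Slc50a1*, a sugar transporter of the SWEET family, had the highest level at 16.4 FPKM. *Slc2a6*, a lysosomal hexose transporter, averaged 1.79 ± 0.63 FPKM over the WT mice (SD, n = 5) and 4.11 ± 2.41 FPKM over the Homo mice (SD, n = 7), a log2 difference of 0.78 with a standard error of 0.32 (limma adjusted p = 0.887; exact permutation p = 0.0303, unadjusted), with 6 of 7 Homo libraries above the WT median. *Slc2a7*, *Slc5a1* and *Slc5a9* were listed at 0 in all 12 libraries.

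Of 14 genes that govern the trafficking or abundance of glucose transporters, 13 were tested, 5 higher and 8 lower, with a median of -0.056 and none at an unadjusted p under 0.05. *Vamp2*, a vesicle SNARE of synapses and GLUT4 vesicles, was the highest at 206.8 FPKM. Of 12 glucose-sensing and lactate-shuttle genes 7 were tested, 6 higher and 1 lower, with a median of 0.14, none at an unadjusted p under 0.05 and *Bsg*, the chaperone of the monocarboxylate transporters, the highest at 281.7 FPKM.

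Of 13 other inward-rectifier potassium channel genes 9 were tested, 5 higher and 4 lower, with a median of 0.0089. *Kcnj10*, the Kir4.1 channel of astrocytes and other glia, had the highest level, with means of 48.1 ± 5.37 FPKM over the WT mice (SD, n = 5) and 62.1 ± 9.75 FPKM over the Homo mice (SD, n = 7). Its log2 difference was 0.36 with a standard error of 0.16 (limma adjusted p = 0.899; exact permutation p = 0.0177, unadjusted), opposite in sign to that of *Kcnj11*, and 6 of 7 Homo libraries lay above the WT median. Of 8 other ABCC transporters 3 were tested, 2 higher and 1 lower, with a median of 0.034 and *Abcc5*, an exporter of cyclic nucleotides, the highest at 23.0 FPKM. Over all 14017 tested genes 6912 were higher and 7105 lower, with a median of -0.0062. With no filter on low values, 3 of the 8 members had a higher and 5 a lower estimate in Homo, where the median over the 23611 genes then fitted was -0.0085.

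**Figure D4:**
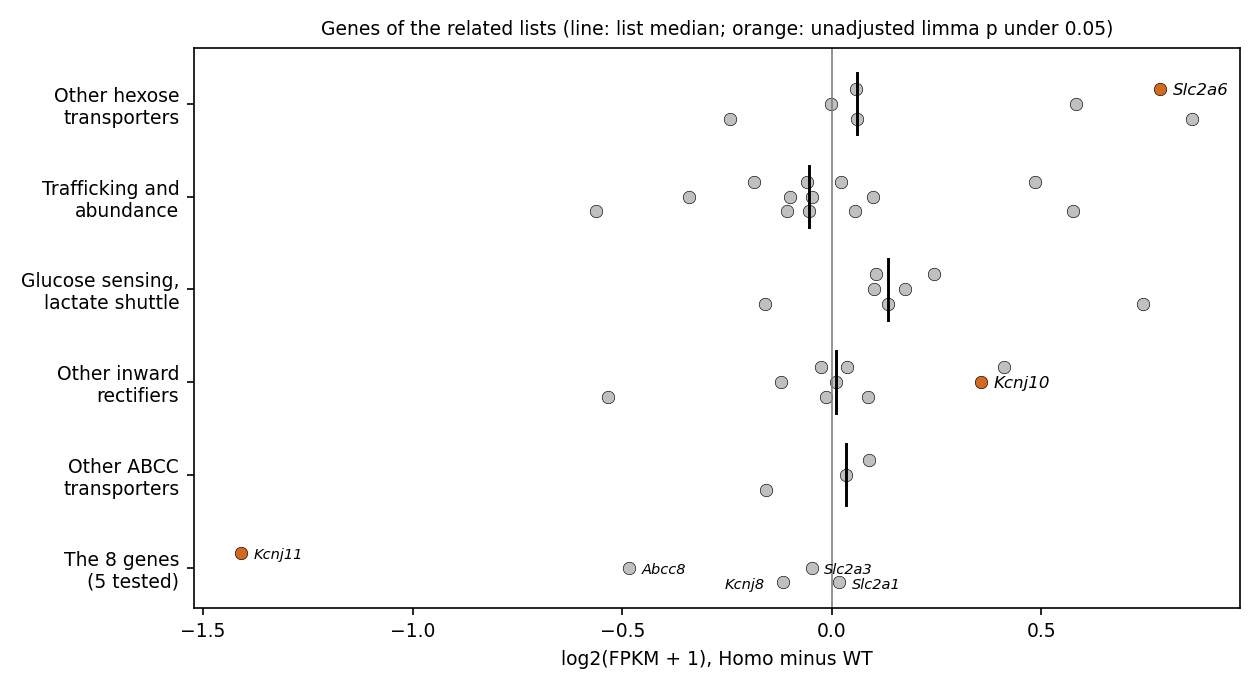
Difference between genotypes in log2(FPKM + 1), Homo minus WT (horizontal axis), for the tested genes of the 5 related lists and for the 5 tested members, 1 point per gene, with a line at each related list's median and orange for an unadjusted limma p under 0.05. *Kcnj11* lies farthest from 0, at -1.41, and the only orange points of the related lists are *Slc2a6* and *Kcnj10*, both above 0.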

How the data were processed

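RNA from laser-captured ARC of 5 WT and 7 Homo mice was amplified, made into libraries and sequenced by the authors, who deposited 1 table of FPKM values per gene and library. Per the labels' processing notes, TopHat2 2.0.8, Cufflinks 2.2.1 and GRCm38 were used, with no role stated; the annotation release is not given in the sources used here. All 12 columns were matched to mice by their labels (Homo 4 and Homo 5 by genotype and number) and 0 columns were left over. The table holds no counts, so no count model was used.

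Values were taken as log2(FPKM + 1), and limma 3.58.1 in R 4.3.3 compared the genotypes for the 14017 genes whose mean FPKM was 1 or more (genotype alone in the model, trended and robust variances, Benjamini-Hochberg adjustment at 0.05). The fit was tested on simulated data with 14017 genes, of which 67, 67 and 66 were changed by log2 1, 2 and 3. It called 20.9%, 68.7% and 92.4% of these. A separate simulation with no changed gene gave 0 calls. Values were drawn from a normal distribution per gene, with no floor at 0 and no library sets. These shares therefore need not hold for low genes such as *Kcnj11*. Single genes were also compared by exact permutation. P-values set the difference between genotypes against the spread between libraries. With 1 library per mouse, that spread holds differences between mice and between library preparations alike.

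Steps were read from genes with a single transcript of 800 to 6000 bases, with 180 bases taken off the length. They were called clear when at least 40% of low values fell within 0.1 of a whole multiple. Chance gives 20% for a single step size, and more for the best of the many sizes tried. Homo 4 passed narrowly, at 41.5%, and Homo 5, without a clear step, had 34.6%. In GENCODE M21, 97.5% of the tested identifiers were found.

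The members, ratios and lists were chosen with earlier results of these data known. Named genes are the 8 members, the gene with the highest mean FPKM and up to 3 with an unadjusted p under 0.05 in each related list, and the 3 tested genes most like each tested member. Alternatives covered the pseudocount, the filter, normalization, library sets, single libraries left out and a replicate block.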

Additional observations from a re-analysis of the deposited data

Results flagged for a closer look

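Of 26 groups of values examined (8 genes and 5 ratios in 2 genotypes), 4 had a highest or lowest library set apart from the rest by Dixon's criterion. For normally distributed values chance meets it in about 1 group in 20. *Slc2a2* and *Slc2a4*, with several libraries at 0, are not so distributed, so the 4 are not read as an excess. *Slc2a3* was highest in Homo 3, at 18.6 FPKM against 13.5 FPKM in the next Homo library, and in the same library the log2 ratio of *Slc2a1* over *Slc2a3* was the lowest in Homo, at 0.053 against 0.82 in the next. *Slc2a2* was highest in Homo 2, at 0.576 FPKM against 0.191 FPKM in the next Homo library. *Slc2a4* was highest in WT 4, at 0.341 FPKM against 0.0557 FPKM in the next WT library.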

How the results depend on the processing

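Under all 26 alternatives, 0 of the tested members passed the adjustment. *Kcnj11* and *Abcc8* kept their direction in all 25 alternatives that tested them. *Kcnj11* ranged from -2.59 to -0.53, with limma adjusted p from 0.546 to 0.988, and from -1.69 to -1.07 with 1 library left out, the second value without WT 1. The filter of 5 FPKM leaves out the KATP subunits. The differences of *Slc2a1*, *Slc2a3* and *Kcnj8*, all near 0, changed sign in 9, 6 and 3 alternatives. *Slc2a1* was -0.24 in the set with fewer genes above 0, -0.039 in Homo 1 to 5 alone and with the replicate block, -0.019 without Homo 2 and Homo 4, and -0.018 without WT 1 as well. *Slc2a3* was 0.046 with array weights, 0.20 in the set with more genes, 0.012 without Homo 2 and Homo 4 and 0.10 without WT 1 as well. *Kcnj8* was 0.021 with quantile normalization and 0.24 without WT 1, Homo 2 and Homo 4. With 1 library left out, *Slc2a1* ranged from -0.087 to 0.12, *Slc2a3* from -0.14 to 0.067, *Kcnj8* from -0.36 to 0.20 and *Abcc8* from -0.67 to -0.25. The cause was not tested.

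Of all genes, 1 passed in the comparison as reported, 6 in the set with fewer genes, 19 in the set with more, 4 with Homo 1 to 5 alone, 2 with the replicate block, 2 without Homo 2 and Homo 4, and 1 to 3 with 1 library left out. The 2 settings that leave out Homo 2 and Homo 4 were chosen after seeing the data. The replicate numbers 1 to 5 did not pair the mice (correlations of deviations from -0.054 to 0.029), and with the block *Kcnj11* was at -1.58 (limma adjusted p = 0.672). The difference in the log2 ratio of *Kcnj11* over *Kcnj8* was -2.55 with 0.1 added and -0.46 in the set with more genes, and the other ratios moved by less than 1 SD. Levels were low for all 4 subunits, and depth could be read in only 6 libraries.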
